A study of Rattus norvegicus with 27 samples.

Results

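The factors that start and extend protein synthesis were followed in hippocampal RNA of rats 8 h after global brain ischemia. Every gene was included whose probe set carried a single symbol beginning with Eif or Eef and a digit in the platform annotation, and the brightest probe set stood for a gene with several. This gave 57 genes on 59 probe sets, out of 18166 genes with a single symbol, and 56 of the 57 were bright enough to be tested. The 57 comprised 4 eIF1 genes, 4 eIF2 genes, 3 eIF2 kinases, 4 eIF2B subunits and 11 eIF3 subunits. The others were 15 eIF4 genes, 3 eIF5 genes and 13 genes of the elongation factor (eEF) class. Classes follow the symbol alone. The eEF class thus also holds the methyltransferase genes Eef1akmt1, Eef1akmt2 and Eef2kmt, the kinase gene Eef2k and the pseudogene entry Eef1a1-ps7. It holds Eef1e1 too, whose protein belongs to a tRNA synthetase complex. The gene not tested was Eif4ebp3, an eIF4E-binding protein, whose mean intensity in the 8 groups lay between 15.0 and 27.7. A further 3 probe sets with several symbols were not used.

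All animals were male Long Evans rats, an outbred strain with no transgene. The 8R groups came from rats given 10 min of normothermic global brain ischemia and 8 h of blood reflow, and the NIC groups came from sham-operated rats without ischemia. From each, the CA1 field, whose pyramidal neurons are known to die days after such an insult, and the more resistant CA3 field were dissected, and the tissue of 5 rats was pooled for each array. Polysome RNA was pelleted through sucrose from a post-mitochondrial supernatant and was not resolved by ribosome number, and total RNA was taken from a share of that supernatant. There were 3 arrays each for 8R CA1 polysome RNA and for the 4 NIC groups, and 4 arrays each for 8R CA1 total RNA, 8R CA3 polysome RNA and 8R CA3 total RNA, 27 in all.

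In eukaryotic initiation, eIF2 carries the initiator tRNA to the small ribosomal subunit, and eIF3, eIF1 and eIF1A prepare that subunit for scanning. The eIF4 group binds the mRNA cap and unwinds the leader, while eIF4E-binding proteins block the cap-binding subunit. Kinases that phosphorylate the alpha subunit of eIF2 turn it into an inhibitor of its own exchange factor, eIF2B, and this switch is known to stop protein synthesis in the brain early in reperfusion. Elongation factors eEF1 and eEF2 then deliver aminoacyl tRNA and move the ribosome along the message.

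Values are PLIER intensities on a linear scale, and tests used log2(intensity + 16) in a limma fit over all 27 arrays and 12716 genes, with Benjamini-Hochberg adjustment over those genes. A gene was said to rise or fall where its adjusted p was under 0.05, and log2 changes are given with their standard error. Array medians lay between 25.63 and 38.09, the lowest correlation between arrays of a group was from 0.946 to 0.985, and the median SD of the factor genes within a group was between 0.0828 and 0.1 on the log2 scale in NIC groups and between 0.131 and 0.153 in 8R groups. The 8R arrays whose labels carry the number 4, which in CA1 polysome RNA is replicate 3, lay low for the factor genes in CA3, with a median deviation from the group mean of -0.15 on the log2 scale in polysome RNA and in total RNA alike, and counts without them are given below. Marker genes of CA1 pyramidal cells were higher in CA1 in 3 of 5 tested in NIC total RNA and in 5 of 5 in NIC polysome RNA, whereas none of the 5 CA3 pyramidal markers tested differed between the regions in either fraction. Labelling started from a fixed weight of RNA, so neither the RNA content of a pool nor its rate of translation can be read from these values. In pooled tissue, fewer cells of a type and less RNA per cell cannot be told apart. The p-values rest on the spread between arrays within a group, taken over all 8 groups, and the number of arrays limits their precision. All arrays were fitted as independent. Yet 8R arrays of a region with the same number deviated together, with correlations of 0.28 to 0.77 between polysome and total RNA.

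After ischemia the factor genes rose mainly in total RNA. In CA1, 3 of 56 rose and 1 fell in polysome RNA, where 4.87% of all genes tested rose and 3.46% fell, while 29 of 56 rose and none fell in total RNA, where 20.1% of all genes rose and 6.15% fell. In CA3, 3 rose and none fell in polysome RNA, against backgrounds of 2.38% and 0.275%, while 25 rose and none fell in total RNA, against backgrounds of 14.2% and 1.34%. In total RNA the shares of 51.8% in CA1 and 44.6% in CA3 were above the background, and in polysome RNA the share of 5.36% was near it in CA1 and above it in CA3, where it rests on 3 genes. All 8R pools lay above all NIC pools for 34 genes in CA1 total RNA and 28 in CA3 total RNA, 60.7% and 50% of the factor genes against 24.5% and 20.2% of all genes. In polysome RNA this held for 13 genes in each region, 23.2% of the factor genes against 13% of all genes in CA1 and 13.2% in CA3. The median log2 change of the factor genes was 0.04 in CA1 polysome RNA and 0.32 in CA1 total RNA, where the medians of all genes were 0.01 and 0.04. It was 0.07 in CA3 polysome RNA and 0.27 in CA3 total RNA, where the medians of all genes were 0.04 and 0.08.

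**Figure D1:**
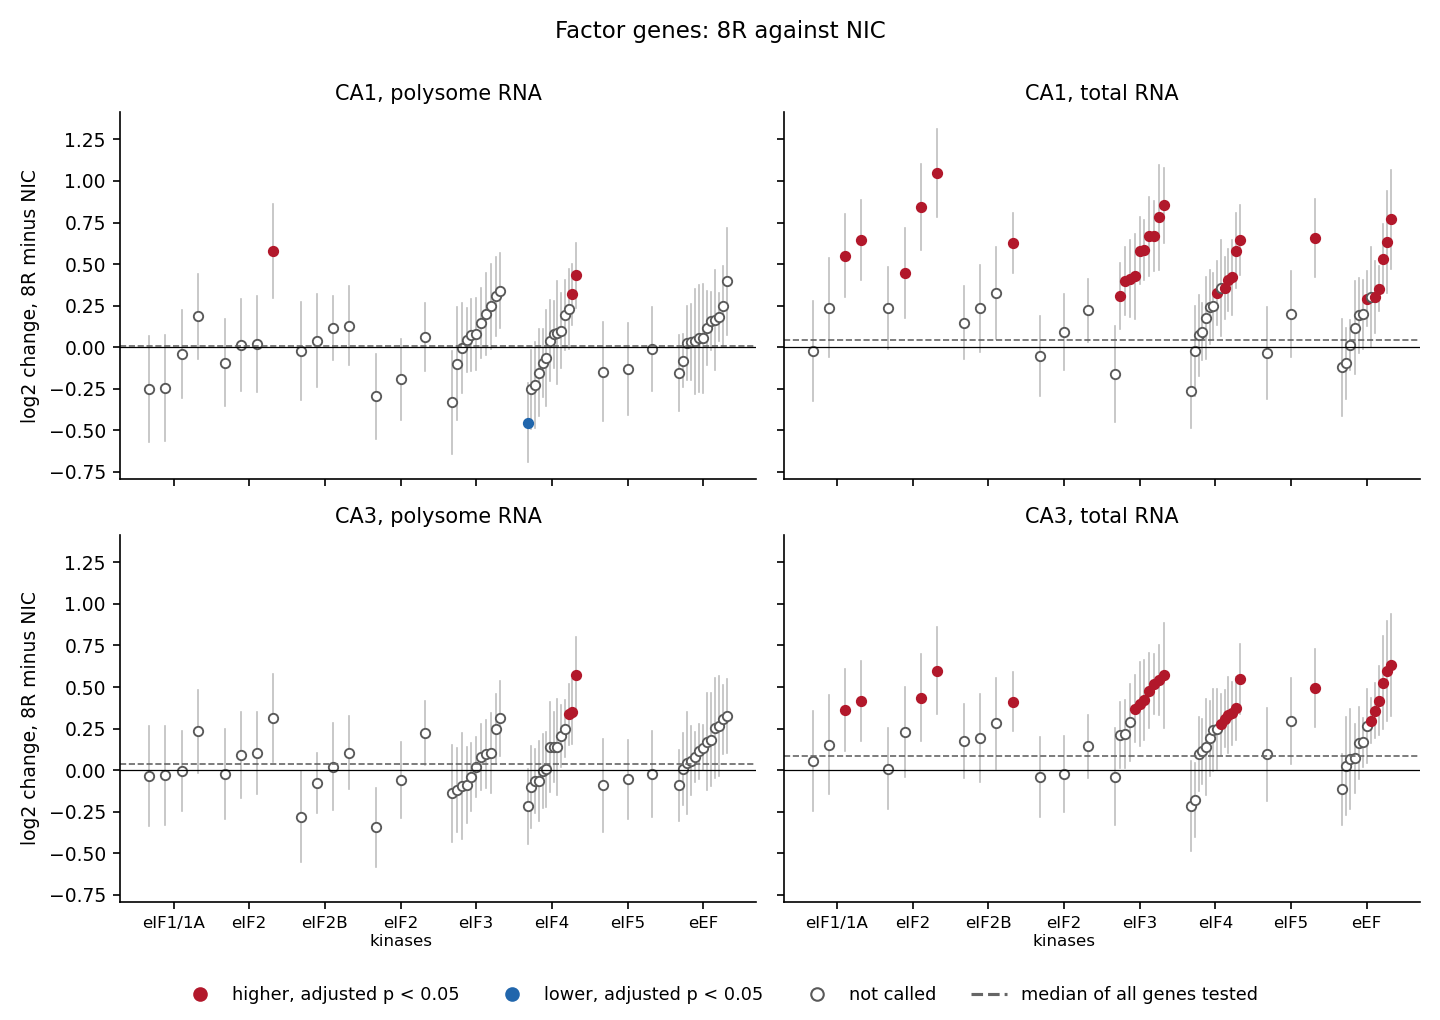
Log2 change, 8R minus NIC, of the 56 factor genes tested, by class along the x axis and ordered by size within each class. Points are estimates, grey lines 95% intervals, filled points genes with an adjusted p under 0.05, and the dashed line the median of all 12716 genes. Most eIF3 genes lie above the dashed line in both total RNA panels, where 10 and 7 of 11 rose in CA1 and CA3, and near it in the polysome panels.

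Without adjustment, p fell under 0.05 upward for 8 factor genes in CA1 polysome RNA and 11 in CA3 polysome RNA, where 11.6% and 14.5% of all genes did so, and downward for 4 and 2, where 11.5% and 4.25% of all genes did so. With quantile normalization, which forces all arrays onto a single distribution, 26 factor genes rose and 1 fell in CA1 total RNA, against 16% and 13.6% of all genes, and 13 rose and 1 fell in CA3 total RNA, against 8.36% and 4.25%. The same scaling gave 0.983% and 0.37% of all genes in CA3 polysome RNA, with 2 factor genes up. Without the number 4 arrays the calls over all genes grew as well. There were then 37 factor genes that rose and 1 that fell in CA1 total RNA, against 26.3% and 10.9% of all genes, and in CA3 total RNA 36 rose and none fell, against 29.2% and 5.06%. In polysome RNA 3 rose in CA1 and 4 in CA3, against 4.88% and 3.13% of all genes. In CA3 total RNA the count fell to 13 when NIC replicate 2 was left out, with 7.03% of all genes up.

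Of the genes that rose in total RNA, 23 rose in both regions, which is 79.3% of the 29 in CA1 and 92% of the 25 in CA3. Those called in CA1 alone were Eef1e1, Eif2a, Eif3d, Eif3f, Eif3l and Eif4e, and those called in CA3 alone were Eef1a1-ps7 and Eif4g1. A call in a single region does not show that the regions differ, and their difference is tested further on.

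The eIF2 genes held the largest rise of the set. Eif2s2, which encodes the beta subunit, rose in polysome and total RNA of CA1 and in total RNA of CA3, and Eif2s1, encoding the alpha subunit that the stress kinases phosphorylate, rose in total RNA of both regions but not in polysome RNA. The gene of the gamma subunit, Eif2s3, was not in the set. The class also holds Eif2a and Eif2d, which encode separate initiation proteins outside the eIF2 trimer. In CA1 total RNA 3 of the 4 genes rose, with a class median of 0.65, and in CA3 total RNA 2 of 4 rose.

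The 200 bases before the annotated starts of both subunit genes are shown because both rose in total RNA while only Eif2s2 was called in CA1 polysome RNA. The genes were not tested against each other, and the part of these sequences in their changes was not tested. They are RefSeq windows in the rat build GRCr8, chr3:163855571-163855770 on the minus strand and chr6:103405680-103405879 on the plus strand. Capitals mark TGATGCAA, a composite element of the kind that C/EBP and ATF proteins, ATF4 among them, are known to bind.
Eif2s2: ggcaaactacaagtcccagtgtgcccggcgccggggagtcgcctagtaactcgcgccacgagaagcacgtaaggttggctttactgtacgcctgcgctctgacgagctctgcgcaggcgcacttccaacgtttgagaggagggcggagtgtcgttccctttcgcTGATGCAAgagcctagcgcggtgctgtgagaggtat
Eif2s1: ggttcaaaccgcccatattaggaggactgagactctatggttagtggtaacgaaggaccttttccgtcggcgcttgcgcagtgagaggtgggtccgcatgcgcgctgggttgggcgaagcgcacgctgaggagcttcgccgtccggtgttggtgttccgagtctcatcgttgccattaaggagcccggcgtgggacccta
On both strands of the windows of 250 bases before to 50 bases after the start, TGATGCAA was found in 1 of the 51 factor genes with a window, Eif2s2, where it begins 36 bases before the start, and in 0.827% of 27457 genes. The motif was picked with the changes already known, and a match of letters is not evidence of binding.

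Eif2s2 had polysome intensities of 538, 417 and 403 in 8R pools, against 321, 278 and 289 in NIC pools, all from CA1. In total RNA of CA1 they were 493, 418, 312 and 439 in 8R pools, against 205, 188 and 178 in NIC pools. No 8R pool overlapped a NIC pool in either fraction. The log2 change was 0.58 ± 0.14 (SE, adjusted p = 0.00841) in polysome RNA and 1.05 ± 0.13 (SE, adjusted p = 6.1e-07) in total RNA, a 2.07-fold rise. Without 8R CA1 polysome replicate 1 the polysome change was 0.45 with an adjusted p of 0.0796. In CA3, polysome intensities were 372, 344, 263 and 292 in 8R pools, against 242, 263 and 246 in NIC pools, and those in total RNA were 338, 331, 267 and 333 in 8R pools, against 216, 206 and 188 in NIC pools. The 8R values again lay above all NIC values in total RNA, with a log2 change of 0.60 ± 0.13 (SE, adjusted p = 0.00196), while the polysome change of 0.31 (95% interval 0.05 to 0.58) did not pass (adjusted p = 0.178).

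Eif2s1 was not called in polysome RNA of either region. Its CA1 polysome intensities were 250, 248 and 215 in 8R pools, against 258, 217 and 230 in NIC pools, which overlap. In CA1 total RNA they were 269, 221, 234 and 298 in 8R pools, against 146, 102 and 160 in NIC pools, with every 8R value above every NIC value. The log2 change was 0.02 (95% interval -0.26 to 0.29) in CA1 polysome RNA and 0.84 ± 0.13 (SE, adjusted p = 1.04e-05) in CA1 total RNA. In CA3 polysome RNA, Eif2s1 had 238, 221, 196 and 166 in 8R pools, against 185, 205 and 181 in NIC pools, again with overlap. In CA3 total RNA it had 255, 201, 226 and 218 in 8R pools, against 153, 159 and 174 in NIC pools, all 8R values being higher, and rose by 0.44 ± 0.13 (SE, adjusted p = 0.0185). That call was lost with quantile normalization (adjusted p = 0.0971) and without NIC CA3 total replicate 1, NIC CA3 total replicate 2 or 8R CA3 total replicate 1 (adjusted p from 0.0748 to 0.0776).

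Eif2a, whose protein can bring initiator tRNA to some messages, had CA1 polysome intensities of 138, 131 and 115 in 8R pools, against 141, 111 and 126 in NIC pools. In total RNA of CA1 it had 104, 99.7, 111 and 106 in 8R pools, against 90.7, 58.3 and 71.6 in NIC pools, without overlap, and rose by 0.45 ± 0.13 (SE, adjusted p = 0.0117). NIC replicate 2 was the lowest of these, and without it the change was 0.32 with an adjusted p of 0.127. CA3 values were 112, 104, 107 and 75.9 in 8R pools, against 100, 114 and 88.2 in NIC pools for polysome RNA, and 103, 105, 113 and 74.8 in 8R pools, against 71.5, 78.4 and 95 in NIC pools for total RNA, where the change of 0.23 (95% interval -0.04 to 0.50) did not pass.

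Eif2d, an unusual initiator that can also release tRNA after termination, did not pass in any of the 4 comparisons. Its CA1 intensities were 55.1, 69 and 52.1 in 8R pools, against 55.5, 60.8 and 74.6 in NIC pools in polysome RNA, and 63.2, 67.2, 53 and 48 in 8R pools, against 48.9, 43.5 and 47.1 in NIC pools in total RNA. CA3 intensities were 40.7, 48.8, 62.3 and 39.8 in 8R pools, against 41.4, 47.8 and 40 in NIC pools for polysome RNA, and 45.6, 52.1, 54.4 and 38.8 in 8R pools, against 47.6, 49.3 and 44.3 in NIC pools for total RNA. Both groups overlap throughout, and its changes lay between -0.09 and 0.23. Without the number 4 arrays its CA1 total change was 0.30 (adjusted p = 0.0401).

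**Figure D2:**
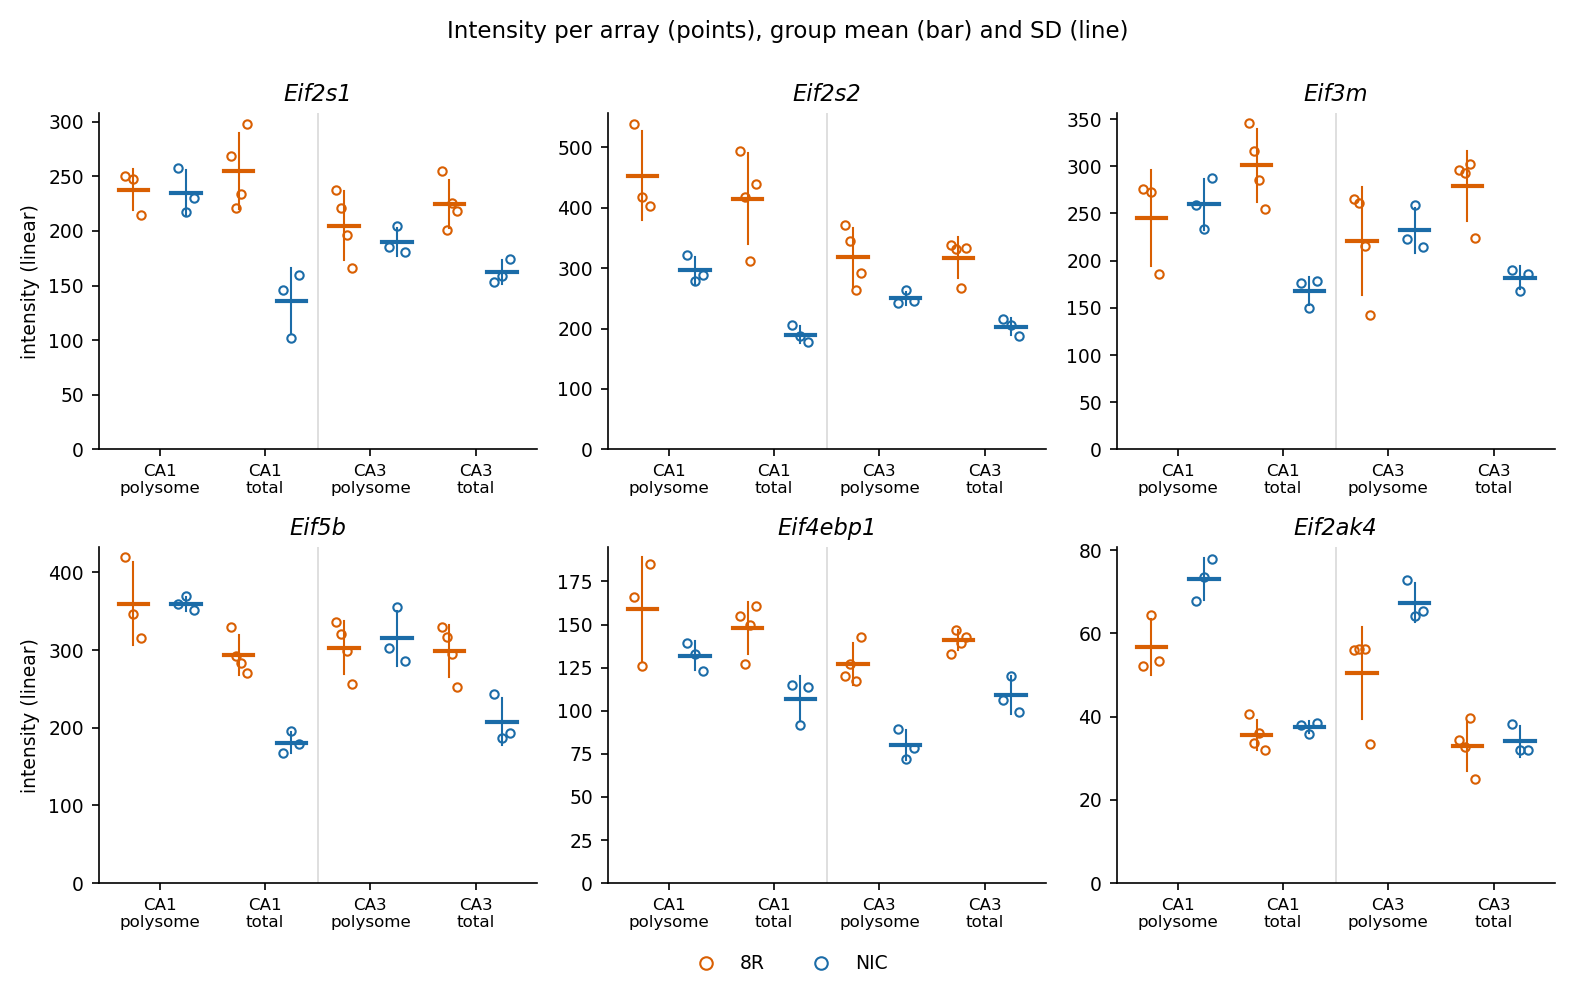
Linear intensity of 6 factor genes on every array. Orange points are 8R pools and blue points NIC pools, thick bars group means and thin lines the SD (n = 3 or 4). Eif2s1, Eif3m and Eif5b separate the groups in total RNA and not in polysome RNA, Eif2s2 separates them in both fractions of CA1, and Eif2ak4 has its higher values in polysome RNA.

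None of the 3 eIF2 kinases in the set passed in any 8R against NIC comparison. A further eIF2 kinase gene, Eif2ak2, which encodes PKR, was not in the set. Eif2ak3 encodes PERK, the kinase of the endoplasmic reticulum stress response. It had 50.6, 63.5 and 61 in 8R pools, against 51.1, 53.8 and 61 in NIC pools in polysome RNA of CA1. Total RNA intensities in CA1 were 48.9, 52.5, 56.7 and 54.8 in 8R pools, against 42.1, 49.2 and 39.2 in NIC pools, a change of 0.22 (95% interval 0.03 to 0.41) with an adjusted p of 0.0806 (0.04 with array weights). The corresponding CA3 values were 44.8, 47.1, 44.5 and 46.2 in 8R pools, against 39.6, 36.7 and 34.4 in NIC pools for polysome RNA, without overlap, and 52.6, 42.2, 50.4 and 52.5 in 8R pools, against 48.3, 44.8 and 36.9 in NIC pools for total RNA. The CA3 polysome change was 0.22 (95% interval 0.03 to 0.41), with an adjusted p of 0.192.

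Eif2ak4 encodes GCN2, the kinase that senses uncharged tRNA, and it was the only kinase with negative estimates in all 4 comparisons. Its CA1 polysome intensities were 52.3, 64.4 and 53.4 in 8R pools, against 67.9, 73.5 and 77.8 in NIC pools, all 8R values being lower, and its CA1 total intensities were 40.6, 33.6, 36.2 and 32.1 in 8R pools, against 37.9, 35.9 and 38.6 in NIC pools. Its polysome intensities in CA3 were 56.1, 56.3, 56.2 and 33.4 in 8R pools, against 72.8, 64.1 and 65.3 in NIC pools, and its total RNA intensities there were 34.4, 32.6, 39.6 and 25 in 8R pools, against 38.3, 31.9 and 32 in NIC pools. The 8R polysome values again lay below all NIC values in CA3, that of the number 4 pool farthest. The polysome changes of -0.30 (95% interval -0.55 to -0.04) in CA1 and -0.34 (95% interval -0.58 to -0.10) in CA3 had adjusted p values of 0.146 and 0.101, so neither passed over all genes. With array weights the CA1 polysome change was -0.34 (adjusted p = 0.0236).

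Eif2ak1 encodes HRI, a kinase known for sensing heme and mitochondrial stress. It had 163, 206 and 223 in 8R pools, against 226, 217 and 236 in NIC pools for polysome RNA of CA1, and 196, 160, 212 and 229 in 8R pools, against 195, 163 and 198 in NIC pools for total RNA. In polysome RNA of CA3 it had 184, 208, 190 and 165 in 8R pools, against 192, 203 and 189 in NIC pools, and in total RNA 213, 215, 224 and 184 in 8R pools, against 212, 226 and 198 in NIC pools. The groups overlap in all 4 pairs, and its changes lay between -0.19 and 0.09 on the log2 scale. With array weights the CA1 polysome change was -0.32 (adjusted p = 0.0289).

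Of the 4 eIF2B subunit genes in the set, Eif2b1 rose in total RNA of both regions and the others did not pass. The complex is the exchange factor that phosphorylated eIF2 blocks, and the gene of its gamma subunit, Eif2b3, was not in the set. Eif2b1, the alpha subunit, had CA1 polysome intensities of 104, 110 and 107 in 8R pools, against 96.4, 93.1 and 103 in NIC pools. Its CA1 total intensities were 111, 94, 91.8 and 98.6 in 8R pools, against 59.3, 53.6 and 62 in NIC pools, with no overlap and a log2 change of 0.63 ± 0.09 (SE, adjusted p = 4.07e-06). CA3 intensities were 77.7, 91.6, 88.7 and 73.4 in 8R pools, against 85.2, 91.2 and 87.6 in NIC pools for polysome RNA, and 87.2, 85.8, 99.8 and 83.3 in 8R pools, against 64.7, 63.9 and 59.7 in NIC pools for total RNA, a change of 0.41 ± 0.09 (SE, adjusted p = 0.00177).

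Eif2b2, the beta subunit, missed the threshold throughout. In CA1 polysome RNA it had 165, 182 and 119 in 8R pools, against 148, 160 and 160 in NIC pools, and in CA1 total RNA 172, 108, 124 and 98.4 in 8R pools, against 95.4, 90.5 and 98.4 in NIC pools, a change of 0.33 (95% interval 0.05 to 0.60) with an adjusted p of 0.0722. Without 8R CA1 total replicate 4 that change was 0.42 with an adjusted p of 0.0229. Its polysome intensities in CA3 were 114, 145, 113 and 101 in 8R pools, against 151, 151 and 137 in NIC pools, and its total RNA intensities there were 110, 122, 99.5 and 101 in 8R pools, against 94.1, 79.3 and 84.8 in NIC pools. The CA3 changes of -0.28 in polysome RNA and 0.28 in total RNA had opposite signs, with adjusted p values of 0.26 and 0.164. Eif2b4 and Eif2b5, the remaining subunit genes of the set, had changes between 0.02 and 0.23 for the delta subunit and between 0.11 and 0.18 for the epsilon subunit.

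Among the genes of the scanning factors, Eif1a, which encodes eIF1A, and Eif1ad, whose protein carries an eIF1A domain, rose in total RNA of both regions. Eif1ad had 105, 92.9 and 93.5 in 8R pools, against 85, 70.2 and 96.4 in NIC pools in polysome RNA of CA1. In CA1 total RNA it had 112, 103, 85.6 and 102 in 8R pools, against 57.6, 59.2 and 58.2 in NIC pools, with tightly grouped NIC values and a log2 change of 0.65 ± 0.12 (SE, adjusted p = 0.000123). In polysome RNA of CA3 it had 78.2, 69.9, 75.2 and 71.1 in 8R pools, against 65.2, 85.7 and 71.4 in NIC pools, and in total RNA 110, 101, 90.2 and 80.8 in 8R pools, against 82.2, 51.6 and 70.8 in NIC pools, where the groups overlap and the change was 0.41 ± 0.12 (SE, adjusted p = 0.0155).

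Eif1a had 103, 126 and 88.8 in 8R pools, against 107, 107 and 111 in NIC pools for polysome RNA of CA1, and 123, 70.3, 97.7 and 102 in 8R pools, against 66.2, 58.6 and 58.2 in NIC pools for total RNA, a change of 0.55 ± 0.12 (SE, adjusted p = 0.00101). CA3 intensities were 115, 119, 109 and 92.8 in 8R pools, against 96.6, 87.8 and 85.9 in NIC pools for polysome RNA, and 110, 93.9, 118 and 95.8 in 8R pools, against 82.1, 74 and 76.4 in NIC pools for total RNA, a change of 0.36 ± 0.12 (SE, adjusted p = 0.0407). The CA3 total calls depended on single arrays. Leaving out any of 5 arrays ended that of Eif1a (adjusted p from 0.065 to 0.147), and leaving out NIC CA3 total replicate 2 or 8R CA3 total replicate 1 ended that of Eif1ad (0.195 and 0.0681). Quantile normalization ended both, at adjusted p values of 0.0979 and 0.0548. Without the filter on dim genes the adjusted p of Eif1a was 0.0559, and in a fit of only the groups compared that of Eif1ad was 0.0517. Eif1ax, a further eIF1A gene, and Eif1b, a close relative of eIF1, did not pass, with changes between -0.25 and 0.24 for Eif1ax and between -0.25 and 0.06 for Eif1b.

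The scaffold eIF3 was the class with the largest share of genes called. In total RNA, 10 of the 11 eIF3 genes in the set rose in CA1 and 7 of 11 in CA3, with class medians of 0.58 and 0.40. None of the 11 passed in polysome RNA of either region, where the medians were 0.08 and 0.02. The exception in CA1 total RNA was Eif3k, a peripheral subunit, at -0.16 (95% interval -0.45 to 0.13). The rises in CA1 total RNA ranged from 0.31 for Eif3f to 0.85 for Eif3j. The core subunit genes Eif3a, Eif3b and Eif3c changed by 0.58 ± 0.10, 0.67 ± 0.10 and 0.59 ± 0.09 there (SE), and by 0.37 ± 0.10, 0.54 ± 0.10 and 0.52 ± 0.09 in CA3 total RNA.

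Eif3j encodes a loosely bound subunit that sits at the mRNA channel of the ribosome. Its CA1 polysome intensities were 288, 240 and 265 in 8R pools, against 238, 206 and 189 in NIC pools, without overlap. Its CA1 total intensities were 249, 227, 232 and 257 in 8R pools, against 148, 99.7 and 135 in NIC pools, a log2 change of 0.85 ± 0.11 (SE, adjusted p = 1.2e-06). In polysome RNA its change of 0.31 (95% interval 0.07 to 0.55) had an adjusted p of 0.106, and with array weights it passed (0.0161). Its polysome intensities in CA3 were 273, 208, 217 and 219 in 8R pools, against 195, 182 and 166 in NIC pools, and its total RNA intensities there were 225, 218, 221 and 235 in 8R pools, against 156, 151 and 163 in NIC pools. Both pairs were again without overlap, and the total RNA change was 0.48 ± 0.11 (SE, adjusted p = 0.00341), which quantile normalization brought to an adjusted p of 0.057.

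Eif3m, a subunit of the outer eIF3 core, rose in total RNA and had slightly negative estimates in polysome RNA. It had 276, 273 and 186 in 8R pools, against 259, 234 and 288 in NIC pools in polysome RNA of CA1. Total RNA intensities in CA1 were 346, 316, 286 and 255 in 8R pools, against 176, 150 and 178 in NIC pools, without overlap. The changes were -0.10 (95% interval -0.44 to 0.24) in polysome RNA and 0.78 ± 0.16 (SE, adjusted p = 0.000342) in total RNA. In polysome RNA of CA3 it had 265, 261, 216 and 142 in 8R pools, against 223, 259 and 214 in NIC pools, and in total RNA 296, 293, 302 and 224 in 8R pools, against 190, 168 and 186 in NIC pools, a change of 0.57 ± 0.16 (SE, adjusted p = 0.0121) that missed the threshold without NIC CA3 total replicate 2 (0.0717).

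The eIF4 genes held 3 of the 4 calls in CA1 polysome RNA and all 3 in CA3 polysome RNA. In total RNA 6 of the 14 genes tested rose in CA1 and 6 in CA3. Eif4a1, the helicase that unwinds leaders, had 735, 717 and 633 in 8R pools, against 675, 669 and 597 in NIC pools in polysome RNA of CA1. In total RNA of CA1 it had 752, 626, 612 and 608 in 8R pools, against 439, 381 and 405 in NIC pools, without overlap, a change of 0.65 ± 0.10 (SE, adjusted p = 2.34e-05). CA3 intensities were 664, 657, 582 and 548 in 8R pools, against 563, 563 and 534 in NIC pools for polysome RNA, and 653, 637, 564 and 498 in 8R pools, against 385, 360 and 443 in NIC pools for total RNA, a change of 0.55 ± 0.10 (SE, adjusted p = 0.000502).

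Eif4e, the cap-binding subunit, rose in CA1 total RNA. It had 293, 288 and 258 in 8R pools, against 294, 253 and 268 in NIC pools for polysome RNA of CA1, and 315, 259, 291 and 326 in 8R pools, against 218, 158 and 209 in NIC pools for total RNA, a change of 0.58 ± 0.11 (SE, adjusted p = 0.000212). Its polysome intensities in CA3 were 238, 247, 230 and 191 in 8R pools, against 211, 215 and 250 in NIC pools, and its total RNA intensities there were 268, 261, 289 and 250 in 8R pools, against 224, 214 and 259 in NIC pools, where the change of 0.19 (95% interval -0.03 to 0.42) did not pass.

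Eif4g2 encodes a scaffold that resembles eIF4G but does not bind eIF4E, and it was the only factor gene that rose in all 4 comparisons. In CA1 polysome RNA it had 1000, 903 and 1210 in 8R pools, against 793, 751 and 733 in NIC pools, and in CA1 total RNA 1080, 1090, 1060 and 991 in 8R pools, against 829, 737 and 814 in NIC pools. In polysome RNA of CA3 it had 835, 721, 796 and 785 in 8R pools, against 565, 630 and 660 in NIC pools, and in total RNA 966, 1030, 1040 and 875 in 8R pools, against 778, 833 and 794 in NIC pools. The groups did not overlap in any of these pairs. The log2 changes were 0.43 ± 0.10 and 0.40 ± 0.09 in CA1 polysome and total RNA and 0.34 ± 0.09 and 0.28 ± 0.09 in CA3 (SE), with adjusted p values of 0.00508, 0.00115, 0.0412 and 0.0358.

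Both tested genes of eIF4E-binding proteins rose in CA3 polysome RNA. Eif4ebp1 had 120, 127, 117 and 143 in 8R pools, against 89.2, 71.9 and 78.6 in NIC pools in that fraction, a change of 0.57 ± 0.11 (SE, adjusted p = 0.00434). In CA3 total RNA it had 133, 147, 139 and 143 in 8R pools, against 106, 120 and 99.1 in NIC pools, a change of 0.33 ± 0.11 (SE, adjusted p = 0.0399). Eif4ebp2, the main such protein of neurons, had 67, 78.9, 74.7 and 72.6 in 8R pools, against 44, 63.1 and 56 in NIC pools in the same fraction, a change of 0.35 ± 0.10 (SE, adjusted p = 0.0433). The groups did not overlap in these 3 pairs. In CA1 polysome RNA, Eif4ebp2 had 84.7, 82.3 and 101 in 8R pools, against 81.7, 76.5 and 69.8 in NIC pools, and in CA1 total RNA 131, 114, 137 and 128 in 8R pools, against 106, 108 and 100 in NIC pools. Neither CA1 pair overlapped, but the changes of 0.19 and 0.25 did not pass (adjusted p = 0.268 and 0.0557). Its CA3 total intensities of 112, 122, 111 and 106 in 8R pools, against 97.7, 109 and 102 in NIC pools, overlapped. In CA1 total RNA, Eif4ebp1 had 155, 127, 150 and 161 in 8R pools, against 115, 91.6 and 114 in NIC pools, and rose by 0.42 ± 0.11 (SE, adjusted p = 0.00528). In CA1 polysome RNA it had 166, 126 and 185 in 8R pools, against 139, 133 and 123 in NIC pools, which overlap, and its change was 0.23 (95% interval -0.01 to 0.47).

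Eif4enif1, whose protein ferries eIF4E to the nucleus and to RNA granules, was the only factor gene that fell, and all its 8R values lay below all its NIC values in each of the 4 pairs. It had 214, 293 and 268 in 8R pools, against 378, 335 and 358 in NIC pools in polysome RNA of CA1, a change of -0.45 ± 0.12 (SE, adjusted p = 0.0141). Total RNA intensities in CA1 were 216, 175, 242 and 252 in 8R pools, against 266, 270 and 264 in NIC pools, with a change of -0.26 (95% interval -0.49 to -0.04) and an adjusted p of 0.0717. CA3 intensities were 209, 267, 252 and 215 in 8R pools, against 278, 276 and 273 in NIC pools for polysome RNA, and 206, 228, 232 and 218 in 8R pools, against 252, 256 and 248 in NIC pools for total RNA. The CA3 changes of -0.22 and -0.18 did not pass (adjusted p = 0.275 and 0.286). Eif4g1, the scaffold of the cap-binding complex, has 3 probe sets that disagreed. In a fit of all probe sets the brightest gave 0.32 in CA1 polysome RNA (adjusted p = 0.0303) and the others 0.25 and 0.52 (0.148 and 0.0311). In CA1 total RNA the brightest gave 0.09 (adjusted p = 0.478) and the others 0.48 and 0.21 (0.000335 and 0.31).

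The CA1 polysome calls depended on single arrays. The 4 calls of Eif2s2, Eif4g1, Eif4g2 and Eif4enif1 became 2 without NIC CA1 polysome replicate 1, 1 without 8R CA1 polysome replicate 1, 7 without 8R CA1 polysome replicate 2 and 2 without 8R CA1 polysome replicate 3, and with array weights they became 11. In CA3 polysome RNA the 3 calls became 1 without NIC CA3 polysome replicate 1, NIC CA3 polysome replicate 3, 8R CA3 polysome replicate 3 or 8R CA3 polysome replicate 4. The shares of all genes called in these fits are not given here, so these counts do not show whether the factor genes moved apart from all genes.

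Of the eIF5 genes, Eif5b rose in total RNA of both regions. Its product joins the ribosomal subunits at the end of initiation. It had 420, 347 and 315 in 8R pools, against 359, 370 and 352 in NIC pools in polysome RNA of CA1, which overlap. In total RNA of CA1 it had 330, 292, 284 and 270 in 8R pools, against 168, 196 and 179 in NIC pools, a change of 0.66 ± 0.12 (SE, adjusted p = 8.13e-05). CA3 intensities were 336, 321, 299 and 257 in 8R pools, against 303, 356 and 286 in NIC pools for polysome RNA, and 330, 317, 295 and 252 in 8R pools, against 243, 187 and 193 in NIC pools for total RNA, a change of 0.49 ± 0.12 (SE, adjusted p = 0.00394).

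Eif5a, the hypusinated factor that helps ribosomes over difficult peptide bonds, did not pass. It had 734, 915 and 730 in 8R pools, against 821, 898 and 879 in NIC pools for polysome RNA of CA1, and 1300, 1150, 1230 and 965 in 8R pools, against 1090, 918 and 1000 in NIC pools for total RNA. Its polysome intensities in CA3 were 867, 878, 893 and 626 in 8R pools, against 740, 826 and 905 in NIC pools, and its total RNA intensities there were 1260, 1370, 1150 and 955 in 8R pools, against 891, 925 and 1060 in NIC pools, a change of 0.30 (95% interval 0.04 to 0.55). Without 8R CA3 total replicate 4 that change was 0.40 with an adjusted p of 0.0217. Its paralog Eif5a2 had changes between -0.15 and 0.10.

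Of the 13 genes of the eEF class, which are not all elongation factors, 6 rose in total RNA of CA1 and 6 in that of CA3. None passed in polysome RNA. Those that rose in both regions included Eef1b2, Eef1d and Eef1g, the genes of the exchange complex of eEF1A. Eef1b2 was dim, with 28.9, 15.5 and 14.3 in 8R pools, against 20.7, 20.2 and 12.8 in NIC pools in polysome RNA of CA1. Total RNA intensities in CA1 were 36.4, 40, 47.8 and 44.8 in 8R pools, against 15.8, 19.4 and 19.3 in NIC pools, without overlap, a change of 0.77 ± 0.15 (SE, adjusted p = 0.00021). In polysome RNA of CA3 it had 28.5, 19.6, 19.6 and 21.9 in 8R pools, against 14.1, 14.3 and 19.2 in NIC pools, and in total RNA 63.7, 50, 70.2 and 35.2 in 8R pools, against 33.4, 25.1 and 31.6 in NIC pools, a change of 0.60 ± 0.15 (SE, adjusted p = 0.00585) that missed the threshold without NIC CA3 total replicate 2 (0.0537). Eef1b2 passed the filter on dim genes, 5.39 on the log2 scale, only through its higher total RNA groups. Its mean was 5.86 and 6.12 in 8R total RNA of CA1 and CA3, against 5.09 and 5.52 in NIC, and under 5.39 in every polysome group. Its rises are thus not independent of the filter, though both also passed without it, and they are included in the counts of factor genes.

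Eef1d had 193, 167 and 120 in 8R pools, against 149, 145 and 158 in NIC pools for polysome RNA of CA1, and 146, 158, 122 and 99.3 in 8R pools, against 76, 76.6 and 81.2 in NIC pools for total RNA, a change of 0.63 ± 0.15 (SE, adjusted p = 0.00198). CA3 intensities were 149, 164, 132 and 101 in 8R pools, against 125, 145 and 122 in NIC pools for polysome RNA, and 139, 128, 137 and 90.4 in 8R pools, against 75.3, 67.8 and 76.6 in NIC pools for total RNA, a change of 0.63 ± 0.15 (SE, adjusted p = 0.00448). Its 8R values were lowest in the pools with number 4 in all 4 groups. Eef1g, Eef1a1 and Eef2 rose by 0.53 ± 0.10, 0.35 ± 0.07 and 0.29 ± 0.08 in CA1 total RNA and by 0.42 ± 0.10, 0.30 ± 0.07 and 0.36 ± 0.08 in CA3 total RNA (SE). Eef1a2, the eEF1A form of mature neurons, did not pass, at 0.01 (95% interval -0.14 to 0.16) in CA1 and 0.17 (95% interval 0.02 to 0.32) in CA3 total RNA. Eef2k, the kinase that inhibits eEF2, had 0.19 (95% interval -0.03 to 0.42) and 0.27 (95% interval 0.04 to 0.49) there. Eef1a1, Eef1a1l1 and Eef1a1-ps7 are near-identical copies whose probes may share signal, so their separate values are uncertain, and without Eef1a1l1 and Eef1a1-ps7 the counts in total RNA were 29 of 54 in CA1 and 24 of 54 in CA3.

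Several of these genes are known in human cells to carry a 5′ terminal oligopyrimidine (TOP) tract, a run of C and T at the start of the message through which mTOR and LARP1 control its translation. Of 10 such factor genes 9 were on the array, and of these 8 rose in CA1 total RNA and 7 in CA3 total RNA, while none passed in polysome RNA of either region. Eef1b2, which passed the filter only through its higher total RNA groups, is among the 8 and the 7. In total RNA 51.8% of all factor genes rose in CA1 and 44.6% in CA3, and 20.1% and 14.2% of all genes. In polysome RNA 5.36% of all factor genes rose in each region, and 4.87% and 2.38% of all genes. Their median changes were 0.11 in CA1 polysome RNA, 0.35 in CA1 total RNA, 0.10 in CA3 polysome RNA and 0.36 in CA3 total RNA. In the same order, those of all factor genes were 0.04, 0.32, 0.07 and 0.27, and those of all genes 0.01, 0.04, 0.04 and 0.08. The bases around the RefSeq start (GRCr8) are shown for the 6 with a window, 10 bases before the start and 20 from it, with capitals for a C followed by at least 4 pyrimidines that begins within 5 bases of the start.
Eef1a1: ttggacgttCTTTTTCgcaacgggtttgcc
Eef1a2: gggtacatctctgcagctgcgtcctctcgg
Eef1b2: ggccggtcccggCCCTTTTTCTCCCTCagc
Eef1g: ctgcggaatcaccatggcggctggggtaag
Eef2: ccgcagccgccgccatcgtcggcgcgcttc
Eif3f: cccttccgttctagCCTCTCTCTTTCTCgg
In order, they lie at chr8:88225050-88225079 (minus strand), chr3:188652614-188652643 (minus), chr9:72074081-72074110 (plus), chr1:215289805-215289834 (plus), chr7:9189219-9189248 (minus) and chr1:172369052-172369081 (plus). Such a run was found in 3 of these 6, in 16 of the 51 factor genes with a window (31.4%) and in 19% of 27457 genes. The search depends on the annotated start, and the starts used in this tissue were not measured. A window without a run thus does not show that the message lacks a TOP tract.

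Among the other promoter motifs searched on both strands, the E-box CACGTG was found in 11 of 51 factor genes (21.6%) and 7.08% of all genes, and the ETS site CCGGAAGT in 12 (23.5%) and 4.2%. The heat shock core GAANNTTC was found in 4 (7.84%) and 9.09%. Of the 25 factor genes with a window that rose in CA1 total RNA, 5 held the E-box and 6 the ETS site.

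Whether the polysome change differed from the total change was tested directly, as the polysome change minus the total change. In CA1 no factor gene was higher and 7 were lower, where 0.409% of all genes were higher and 3.41% lower. In CA3 none passed in either direction, where 0.055% and 0.11% of all genes did. The median of the factor genes was -0.29 in CA1 and -0.18 in CA3, with medians of all genes of -0.06 and -0.07. Without adjustment, p was under 0.05 for 24 factor genes in CA1 and 12 in CA3, all lower, against 16.9% and 13% of all genes.

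The 7 genes were spread over the classes. The difference, with its SE, was -0.83 ± 0.19, adjusted p = 0.0156 for Eif2s1 and -0.51 ± 0.13, adjusted p = 0.0259 for Eif2b1. Among eIF3 genes it was -0.88 ± 0.23, adjusted p = 0.0274 for Eif3m, -0.54 ± 0.13, adjusted p = 0.0196 for Eif3c and -0.50 ± 0.15, adjusted p = 0.0464 for Eif3a. It was -0.55 ± 0.15, adjusted p = 0.0379 for the helicase gene Eif4a1 and -0.67 ± 0.17, adjusted p = 0.0263 for Eif5b. For these 7 genes the CA1 polysome change lay between -0.10 and 0.12 and the CA1 total change between 0.58 and 0.84. Eif2s1 averaged 238 ± 19 in 8R polysome RNA and 255 ± 35 in 8R total RNA (SD, n = 3 and 4), and 235 ± 21 in NIC polysome RNA and 136 ± 30 in NIC total RNA (SD, n = 3 each). The NIC total group was the low one, and the values of the other 3 groups overlapped. Eif2s2, which rose in both fractions, had a difference of -0.47 (95% interval -0.86 to -0.08), with an adjusted p of 0.138.

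**Figure D3:**
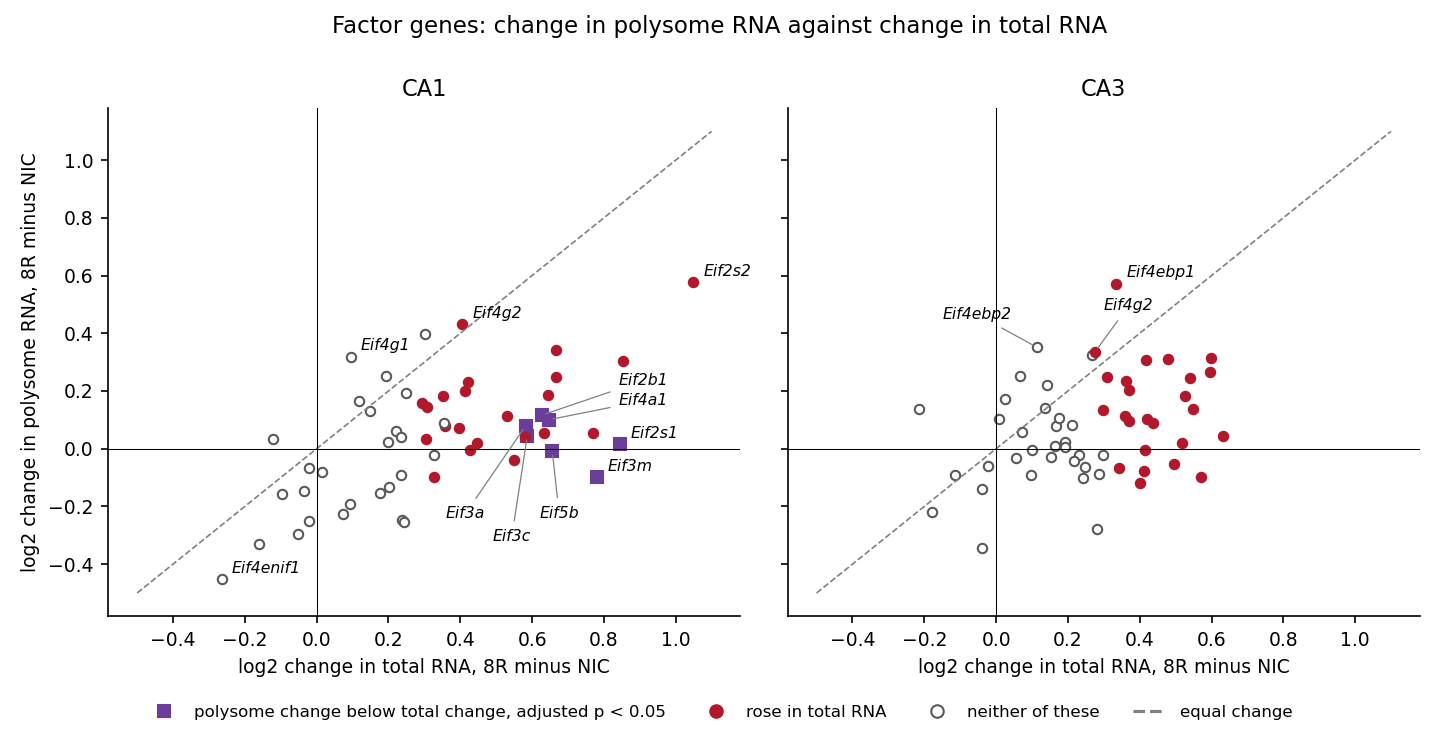
Log2 change in polysome RNA (y axis) against log2 change in total RNA (x axis), 8R minus NIC, for the 56 factor genes, CA1 left and CA3 right. The dashed line marks equal change, purple squares the 7 genes whose changes differed with an adjusted p under 0.05, red circles other genes that rose in total RNA, and names mark squares and genes called in polysome RNA. Of the 56 points, 6 lie above the dashed line in CA1 and 11 in CA3.

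Polysome and total RNA were made from shares of a supernatant, and in 8R the replicate numbers were taken to pair the arrays. With the pool as a random block of condition and number, 20 factor genes were lower in CA1 and 9 in CA3, where 11.5% and 7.12% of all genes were lower. As a fixed block it gave 20 and 11, against 14.1% and 11.6%, and a block that also separates the regions gave 23 and 13, against 16.5% and 11.3%. The calls over all genes thus grew with those of the factor genes under each block. The blocks also tied NIC arrays by number, whose correlations within a region were -0.04 to 0.22. The NIC part of these counts thus rests on a pairing that those values do not show. No factor gene was higher in any of these fits. The unblocked count in CA1 was 0 without NIC CA1 polysome replicate 1 or without NIC CA1 total replicate 2, 1 without 8R CA1 polysome replicate 3, 2 without NIC CA1 polysome replicate 3 or without 8R CA1 total replicate 1, and 4 without NIC CA1 polysome replicate 2. The share of all genes called lower in these 6 fits was between 0.212% and 2.27%. In CA3 it was 7 without 8R CA3 total replicate 4 and 2 without 8R CA3 polysome replicate 2, against 5.7% and 0.928% of all genes. Without all number 4 arrays it was 11 in CA1 and 11 in CA3, against 7.36% and 7.19% of all genes. Quantile normalization gave 1 higher and 5 lower in CA1, 4 of them among the 7, with 1.3% and 2.49% of all genes, and none in CA3, with 0.0786% and 0.0629%.

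In NIC tissue the factor genes were spread unevenly between the fractions. In CA1, 36 were higher in polysome than in total RNA and 2 were lower, where 39.4% of all genes were higher and 4.62% lower. In CA3, 20 were higher and 8 lower, where 21.5% and 16.9% of all genes were. The share of factor genes called higher was 64.3% in CA1 and 35.7% in CA3. The median difference was 0.45 in CA1 and 0.14 in CA3, against medians of all genes of 0.20 and 0.00. The scaling of the fractions to each other is not known, and the lowest value of an array fell in separate ranges for polysome and total arrays, so differences are best read against the median of all genes. Quantile normalization lowered that median to 0.04 in CA1, with 23 factor genes higher and 4 lower, against 22.5% and 11.8% of all genes, and in CA3 gave 21 higher and 9 lower, against 24.7% and 12.5%.

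By class, the eIF2, eIF2B and eIF3 genes had the highest medians in both regions and the eIF5 and eEF classes the lowest. All 4 eIF2B genes were higher in polysome RNA in both regions, with medians of 0.62 in CA1 and 0.49 in CA3. All 4 eIF2 genes were higher in CA1, with a median of 0.64, and none was called in CA3, where their median was 0.24. Over all genes 39.4% were higher in CA1, and 21.5% were higher and 16.9% lower in CA3. The medians of all genes were 0.20 in CA1 and 0.00 in CA3, so part of the regional contrast in counts goes with that offset. Of the 11 eIF3 genes 9 were higher in CA1 and 6 in CA3. Of the 13 genes of the eEF class 4 were higher in CA1, and 3 were higher and 4 lower in CA3.

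The 3 largest differences in CA1 were those of Eif3c, Eif3a and Eif5b. Eif3c had 783, 704 and 740 in NIC CA1 polysome RNA, against 393, 333 and 364 in NIC CA1 total RNA, a log2 difference of 1.00 ± 0.09 (SE, adjusted p = 9.97e-09). Eif3a differed by 0.95 ± 0.11 (SE, adjusted p = 1.05e-07), and Eif5b by 0.94 ± 0.12 (SE, adjusted p = 8.85e-07). In CA3 the largest were 0.84 ± 0.09 (SE, adjusted p = 1.62e-07) for Eif3c, 0.75 ± 0.12 (SE, adjusted p = 2.99e-05) for Eif3d and 0.74 ± 0.12 (SE, adjusted p = 5.4e-05) for Eif2ak4. Eif2ak4 had 72.8, 64.1 and 65.3 in NIC CA3 polysome RNA, against 38.3, 31.9 and 32 in NIC CA3 total RNA, about the same step as in CA1 (0.74 ± 0.12).

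The 2 genes lower in polysome RNA of both regions were Eif4e3 and Eif4ebp2, and the other 6 called lower in CA3 included 4 genes of the eEF class. Eif4e3, a cap-binding relative of eIF4E, had 52.4, 50.8 and 39.6 in NIC CA3 polysome RNA, against 126, 113 and 134 in NIC CA3 total RNA, a difference of -1.14 ± 0.15 (SE, adjusted p = 1.97e-06). In CA1 it differed by -0.55 ± 0.15 (SE, adjusted p = 0.00384). Eif4ebp2 differed by -0.77 ± 0.10 (SE, adjusted p = 2.46e-06) in CA3 and by -0.39 ± 0.10 (SE, adjusted p = 0.00257) in CA1, and Eef1a1l1 by -0.55 ± 0.16 (SE, adjusted p = 0.0077) in CA3. These comparisons share their NIC arrays with the 8R against NIC comparisons, so the polysome to total difference in NIC tissue and the changes after ischemia are not independent.

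**Figure D4:**
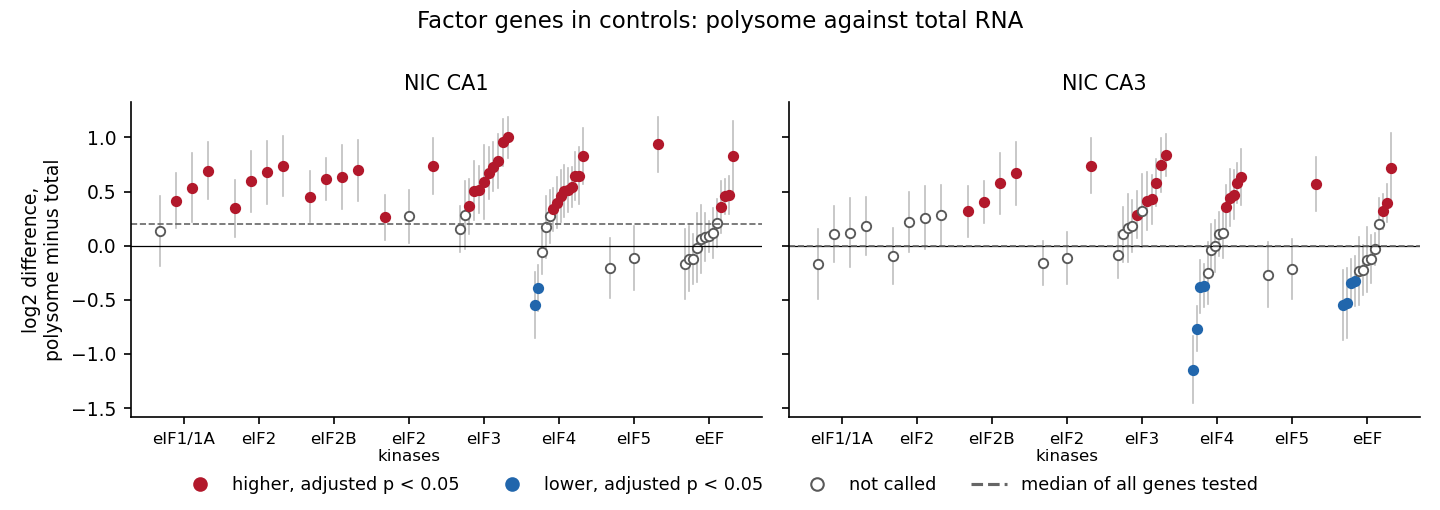
Log2 difference, polysome minus total RNA, of the 56 factor genes in NIC CA1 (left) and NIC CA3 (right), by class along the x axis and ordered by size within each class. Points, grey lines, fills and the dashed line are the estimates, 95% intervals, calls at an adjusted p under 0.05 and the median of all genes. All 4 eIF2B genes lie above 0 in both panels, and Eif4e3 is the lowest point in each.

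In 8R tissue the corresponding medians of the factor genes were 0.09 in CA1 and -0.06 in CA3, where those of all genes were 0.18 and -0.01. Of the 56 genes, 36 had a mean above 0 in 8R CA1 and 24 in 8R CA3, against 47 in NIC CA1 and 33 in NIC CA3. The factor genes as a group thus lay above all genes in NIC tissue of both regions and below them in 8R tissue of both regions.

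Between the regions, no factor gene passed in NIC total RNA, where 2.41% of all genes were higher in CA1 and 1.06% lower, and without adjustment 2 were higher and 6 lower, where 7.97% and 5.04% of all genes were. In NIC polysome RNA 12 were higher in CA1 and none lower, where 27.7% of all genes were higher and 0.731% lower, so the share of 21.4% was below the background. All 7 tested oligodendrocyte markers were higher in CA1 in both fractions, with a median difference of 0.93 in NIC polysome RNA and 0.69 in NIC total RNA. Their summed intensity was 2705 to 3283 in NIC CA1 polysome pools, against 1477 to 1840 in NIC CA3 polysome pools. Also higher in CA1 in NIC polysome RNA were 2 of 3 dentate granule, 3 of 6 astrocyte and 2 of 7 interneuron markers. In NIC total RNA these counts were 1 of 3, 1 of 6 and 0 of 7. No microglia marker was called in either fraction. The part of these cell types in the differences of the factor genes was not tested. The median difference of polysome RNA was 0.19 for the factor genes and 0.23 for all genes. The largest differences were 0.63 ± 0.12 (SE, adjusted p = 0.000446) for Eif4ebp1, 0.56 ± 0.13 (SE, adjusted p = 0.00227) for the scaffold gene Eif4g3 and 0.43 ± 0.10 (SE, adjusted p = 0.0029) for Eif2ak3. Eif4ebp1 had 139, 133 and 123 in NIC CA1 polysome RNA, against 89.2, 71.9 and 78.6 in NIC CA3 polysome RNA. Quantile normalization left 1 factor gene higher, with 2.89% and 1.81% of all genes and a median of 0.00 over all genes. Leaving out single arrays took the count of 12 to between 5 and 8.

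The changes after ischemia did not pass a test of difference between the regions for any factor gene. In total RNA 0.0236% of all genes changed more in CA1 and 0% less, and in polysome RNA 0.00786% changed more and 0.00786% less. Without adjustment, 4 factor genes changed more and 1 less in CA1 total RNA, where 2.52% and 2.69% of all genes did so, and none changed more and 1 less in CA1 polysome RNA, where 2.25% and 3.31% did so. The difference of the changes in total RNA, CA1 minus CA3, was 0.45 (95% interval 0.08 to 0.82) for Eif2s2, 0.41 (95% interval 0.04 to 0.78) for Eif2s1, 0.39 (95% interval 0.07 to 0.71) for Eif4e and 0.37 (95% interval 0.06 to 0.69) for Eif3j, with adjusted p values between 0.895 and 0.936. The median difference in total RNA was 0.10 for the factor genes and -0.03 for all genes.

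Of 56 other genes of the translation machinery and its control, 48 were tested. In CA1, 6 rose and 2 fell in polysome RNA and 24 rose and 3 fell in total RNA. In CA3, 3 rose in polysome RNA and 17 in total RNA, and none fell. Of 9 tested genes of the integrated stress response, through which phosphorylated eIF2 acts, 6 rose in CA1 polysome RNA and 6 in CA1 total RNA, where 4.87% and 20.1% of all genes rose. In CA3, 3 of the 9 rose in polysome RNA and 5 in total RNA, where 2.38% and 14.2% of all genes rose. Ddit3, the transcription factor CHOP, rose by 1.72 ± 0.24 and 1.83 ± 0.23 in CA1 polysome and total RNA and by 1.35 ± 0.23 and 1.67 ± 0.23 in CA3 (SE). Ppp1r15a, the inducible subunit of the phosphatase that reverses eIF2 phosphorylation, rose by 1.67 ± 0.24 and 1.65 ± 0.23 in CA1 and by 1.15 ± 0.23 and 0.93 ± 0.23 in CA3. Atf4, the transcription factor translated when eIF2 is phosphorylated, rose by 0.93 ± 0.15 and 0.82 ± 0.14 in CA1 and by 0.64 ± 0.14 and 0.48 ± 0.14 in CA3.

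Accessory factors for initiation, recycling and release were called in total RNA alone. None of 10 was called in CA1 polysome RNA and 8 of 10 rose in CA1 total RNA, where 4.87% and 20.1% of all genes rose. In CA3 none of them was called in polysome RNA and 5 rose in total RNA, where 2.38% and 14.2% of all genes rose. None of 10 in polysome RNA is thus near the share of all genes. Etf1, the release factor eRF1, had 0.37 ± 0.13 in CA1 polysome RNA (adjusted p = 0.07) and rose by 1.03 ± 0.12 in CA1 total RNA (adjusted p = 2.81e-07). In CA3 it had 0.31 ± 0.12 in polysome RNA (0.148) and rose by 0.72 ± 0.12 in total RNA (0.000134). Of the 14 mTOR and eIF4 regulators, 2 fell in CA1 polysome RNA, Pdcd4 and Mtor. In CA1 total RNA 4 rose and 3 fell, the latter being Mtor, Rptor and Tsc1. Of all genes, 3.46% fell in CA1 polysome RNA, and 20.1% rose and 6.15% fell in CA1 total RNA.

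Markers of other cell types moved with condition as well. In the RNA of 8R CA1, 1 of 6 astrocyte markers and 3 of 7 microglia markers rose in polysome RNA, and 4 of 6 and 3 of 7 in total RNA. In CA3, 1 of 6 and 2 of 7 rose in polysome RNA, and 2 of 6 and 2 of 7 in total RNA. The summed intensity of the astrocyte markers was 5100 to 6019 in 8R CA1 polysome pools, against 4632 to 4737 in NIC, and 4442 to 5083 in 8R CA1 total pools, against 3419 to 3607 in NIC. That of the microglia markers was 503.2 to 652.6 in 8R CA1 polysome pools, against 365.9 to 388.1 in NIC, and 442.4 to 509.1 in 8R CA1 total pools, against 355 to 382.8 in NIC. Of the 5 CA1 pyramidal markers, 2 fell in CA1 total RNA, and their sum was 883.5 to 1502 in 8R pools, against 1146 to 1320 in NIC. In CA3, the astrocyte sum was 4058 to 4682 in 8R polysome pools, against 3742 to 3776 in NIC, and 3389 to 4441 in 8R total pools, against 3098 to 3259 in NIC. The microglia sum was 397.2 to 516.5 in 8R CA3 polysome pools, against 331.2 to 338.7 in NIC, and 421.1 to 451.4 in 8R CA3 total pools, against 318.3 to 364.2 in NIC. Of 7 oligodendrocyte markers, none rose and 1 fell in CA1 polysome RNA, 1 rose and 1 fell in CA1 total RNA, 1 rose in CA3 polysome RNA and 2 rose in CA3 total RNA. Their sum was 1997 to 2250 in 8R CA3 total pools, against 1545 to 1868 in NIC, and 2491 to 2861 in 8R CA1 total pools, against 2608 to 3119 in NIC. In polysome RNA it was 2518 to 3065 in 8R CA1 pools, against 2705 to 3283 in NIC, and 1741 to 2039 in 8R CA3 pools, against 1477 to 1840 in NIC. Of 7 interneuron markers, 1 rose in CA1 total RNA, 2 rose in CA3 total RNA and none was called in polysome RNA. Their sum was 1944 to 2027 in 8R CA3 total pools, against 1767 to 1827 in NIC. Among CA3 pyramidal markers 1 of 5 rose in CA1 total RNA, and none of the 2 endothelial markers tested was called. These counts stand beside 20.1% and 14.2% of all genes that rose in CA1 and CA3 total RNA, and 4.87% and 2.38% in polysome RNA. No marker of these lists was at 0. Their part in the changes of the factor genes was not tested.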

How the data were processed

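The authors deposited a linear PLIER intensity for each probe set and array, with Affymetrix Expression Console also named per the submitters' processing notes. The sources used here give no version, background correction or scaling between arrays. No column of the table lacked a sample. Values were taken as log2(intensity + 16), the brightest of the probe sets with a single symbol was kept for each of 18166 genes, and the 12716 genes with a mean at or over the 30th percentile (5.39 on that scale) were tested. A means model of the 8 groups over 27 arrays was fitted with limma 3.58.1 in R 4.3.3, with eBayes and an intensity trend, and Benjamini-Hochberg adjusted p-values, from 12 two-sided comparisons, were taken over all genes. Figures were drawn with matplotlib 3.10.9 in Python 3.11.15. The script was tested on simulated data.

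All 57 symbols matched RefSeq, which changed 0 of them, and 51 had a promoter window. Every array's value is printed for the eIF2 genes, the kinases and the 2 genes of each other class with the largest change in any 8R against NIC comparison. Array values of Eif4g2, Eif4ebp1, Eif4ebp2 and Eif4enif1 are also printed, chosen after they were seen and not among the 19 genes searched for an array that stood apart. Between fractions or regions the 3 largest called in each direction are named. The members, lists and motifs were chosen with earlier results of these data known, and the 4 motifs after several had been looked at.

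In 8R, arrays of a region with the same number in polysome and total RNA deviated together, with correlations of 0.28 to 0.77 over 7 pairs. The numbers were therefore taken to pair these arrays. Between regions, 8R arrays with the same number had correlations of 0.12 to 0.78 within a fraction and -0.11 to 0.65 across fractions. Arrays with different numbers were not compared. In NIC, arrays of a region with the same number had correlations of -0.04 to 0.22 over 6 pairs. The numbers are those of the descriptions, in which 8R CA1 polysome replicates 2 and 3 carry the numbers 3 and 4.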

Additional observations from a re-analysis of the deposited data

Results flagged for a closer look

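For 7 factor genes the 8R against NIC change differed between polysome and total RNA of CA1 in a test of the difference itself. Polysome change minus total change was -0.83 for Eif2s1, -0.51 for Eif2b1, -0.50 for Eif3a, -0.54 for Eif3c, -0.88 for Eif3m, -0.55 for Eif4a1 and -0.67 for Eif5b on the log2 scale. In each the change was the lower in polysome RNA.

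Among 57 sets of 4 arrays, those of the 19 genes picked by class and size of change, 5 had an array that stood apart from the other 3, and chance alone gives about 1 in 20. The gap of that array to its neighbour is given as a share of the set's whole range, and exceeded Dixon's 95% critical value for 4 values in these 5. Eif2ak4 was lowest in 8R CA3 polysome replicate 4, at 33.4 with a share of 0.994. Eif5a was lowest on the same array, at 626 with a share of 0.917. Eif3m was lowest in 8R CA3 total replicate 4, at 224 with a share of 0.895. Eif2s2 was lowest in 8R CA3 total replicate 3, at 267 with a share of 0.911. Eif4a1 was highest in 8R CA1 total replicate 1, at 752 with a share of 0.859.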

How the results depend on the processing

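Of 76 results for single genes in the 8R against NIC comparisons, 25 passed, and 17 of these passed with each array left out and under all alternatives that tested them. The CA1 total result of Eef1b2, among the 17, was not tested with the filter at the 50th percentile. None reversed. The cause of the changes below was not tested, except that fewer arrays or groups in a fit leave fewer degrees of freedom.

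Counts of factor genes called in either direction moved as follows. Most counts here and in the paragraphs below are given without the share of all genes called in that fit. A count that moved thus does not show a change particular to the factor genes. In CA1 polysome RNA the 4 became 1 in a fit of only the groups compared and 11 with array weights, and were 1 to 7 with single arrays left out. In CA3 polysome RNA the 3 became 1 with a pseudocount of 64, 1 with only the groups compared and 5 with array weights, and were 1 to 2 with single arrays left out. In CA3 total RNA the 25 became 14 with quantile normalization and 38 with array weights, and were 13 to 30 with single arrays left out. In CA1 total RNA the 29 were 23 to 32.

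For polysome change minus total change in CA1, the 7 became 4 with only the groups compared, 11 with array weights and 11 without the number 4 arrays, and were 0 to 10 with single arrays left out. With the pool as a replicate block they were 20 (random), 20 (fixed) and 23 (random, regions apart). These blocks tie NIC arrays as well, and the correlations do not show whether their numbers pair them. In CA3, 0 became 15 with array weights, 11 without the number 4 arrays, and 9, 11 and 13 with these replicate blocks, and was 0 to 7 with single arrays left out.

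Between CA1 and CA3 in NIC total RNA, 0 became 1 with quantile normalization, 5 with only the groups compared, 5 with array weights, 3 with the random and 3 with the fixed replicate block, and 4 without the number 4 arrays. In NIC polysome RNA the 12 became 1 with quantile normalization, 24 with only the groups compared, 19 and 20 with the random and fixed replicate block and 20 without the number 4 arrays, and were 5 to 8 with single arrays left out. The correlations do not show whether the numbers of NIC arrays pair them, so these block counts are given for completeness.

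Polysome against total calls stayed within 1.5 times of the main counts, at 33 to 38 in NIC CA1 and 22 to 26 in NIC CA3 with single arrays left out, and no factor gene was called for a difference of the changes between regions under any alternative. Dim probe sets limit Eef1b2, Eif2ak4 and Eif2d, and the pseudocount lowers their fold changes.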
